A study of Mus musculus with 6 samples.

Results

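The genes described here are 10 killer lectin-like receptors and the adaptors that carry their signals, namely Klrk1, Klrc2, Klrb1c, Klrc1, Klrg1, Klrd1, Klre1, Hcst, Tyrobp and Fcer1g. They were chosen by name, as rows of the array table annotated with exactly that symbol. Each had 1 such row, so the members are 10 of 19938 named genes. Expression was compared between CD8+ T cells (CD8-TC) of Runx3-/- and of WT mice, 3 arrays each, every array holding RNA from the spleen cells of 1 mouse. All mice were ICR males by label, aged 6 weeks. Cells of both genotypes were selected on anti-CD8 beads, stimulated with plate-bound anti-CD3 and soluble anti-CD28 for 2 days, and kept for 4 days in IL-2 at 100 units per ml. Runx3-/- cells alone were in addition sorted by flow cytometry, which removed CD11c+ dendritic cells ahead of stimulation and CD4+CD8- cells once the culture had ended. Genotype and this sorting cannot be told apart. The genotype label names no Cre driver. Arrays are called KO1 to KO3 (labelled Runx3-/-) and WT1 to WT3.

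Killer lectin-like receptors are C-type lectin-like proteins of natural killer (NK) cells, and antigen-experienced CD8-TC acquire several of them. Activating receptors have no signalling tail of their own and rely on small transmembrane adaptors. Hcst (DAP10) recruits phosphoinositide 3-kinase, whereas Tyrobp (DAP12) and Fcer1g carry activation motifs that engage Syk-family kinases. Inhibitory receptors carry inhibitory motifs in their own tail that recruit phosphatases such as Ptpn6. Klrk1 encodes NKG2D, which reads stress-induced ligands and acts as a co-stimulatory receptor on CD8-TC. Klrd1 encodes CD94, the common partner of inhibitory Klrc1 (NKG2A) and activating Klrc2 (NKG2C). Members were grouped by these textbook roles into activating receptors (Klrk1, Klrc2, Klrb1c), inhibitory receptors (Klrc1, Klrg1), partner chains (Klrd1, Klre1) and adaptors (Hcst, Tyrobp, Fcer1g).

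The promoters of the receptor genes are shown because the study is about a Runt-domain factor and because several of these genes lie side by side. RefSeq promoters (GRCm38.p6, 250 bases before to 50 after the start, read along the gene) matched 7 members, with 9 start sites, and no entry was matched for Klrd1, Klrg1 and Tyrobp. The RUNX motif was searched on both strands as TGTGGT, as its variant TGTGGC, and also as TGCGGT or as the variant TGCGGC, 4 forms in all. Capitals mark each match, and a match on the opposite strand to the gene reads ACCACA. Klrk1 lies at chr6:129623815-129624114, Klrc1 at chr6:129678924-129679223, Klrb1c at chr6:128788592-128788891 and Klrc2 (its first listed start) at chr6:129660547-129660846, all on the minus strand.
Klrk1: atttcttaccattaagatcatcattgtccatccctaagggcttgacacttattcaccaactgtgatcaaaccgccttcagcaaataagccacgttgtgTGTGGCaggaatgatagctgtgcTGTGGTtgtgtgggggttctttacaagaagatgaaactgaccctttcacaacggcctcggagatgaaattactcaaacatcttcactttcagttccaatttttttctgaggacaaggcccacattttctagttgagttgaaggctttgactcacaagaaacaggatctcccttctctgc
Klrc1: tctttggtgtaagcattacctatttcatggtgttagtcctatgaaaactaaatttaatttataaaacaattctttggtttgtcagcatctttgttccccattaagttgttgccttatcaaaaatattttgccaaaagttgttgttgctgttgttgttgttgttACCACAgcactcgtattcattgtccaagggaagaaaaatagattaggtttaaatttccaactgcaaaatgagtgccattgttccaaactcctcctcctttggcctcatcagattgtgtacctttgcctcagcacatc
Klrb1c: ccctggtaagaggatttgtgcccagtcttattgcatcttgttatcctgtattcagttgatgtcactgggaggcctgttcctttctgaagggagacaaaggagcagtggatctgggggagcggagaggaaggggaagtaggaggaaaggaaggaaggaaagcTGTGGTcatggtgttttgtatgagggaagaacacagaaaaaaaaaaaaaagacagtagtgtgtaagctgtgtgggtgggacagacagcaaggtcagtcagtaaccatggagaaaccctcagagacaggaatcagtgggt
Klrc2: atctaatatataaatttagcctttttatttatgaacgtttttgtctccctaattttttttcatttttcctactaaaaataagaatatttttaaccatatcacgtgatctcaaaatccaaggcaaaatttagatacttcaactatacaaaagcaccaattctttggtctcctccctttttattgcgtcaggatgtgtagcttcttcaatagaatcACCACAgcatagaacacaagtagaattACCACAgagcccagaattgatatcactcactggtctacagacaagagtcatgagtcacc

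Counted from the start of the gene, TGTGGT began at base -129 in Klrk1 and at -89 in Klrb1c. In Klrc1 it lay on the opposite strand at -87, and in Klrc2 on the opposite strand at -36 and -9. Klrk1 also held TGTGGC at -152, upstream of its TGTGGT match. TGTGGT was further found in 1 of both Klre1 windows, at -229, and in Fcer1g, at base 10 after the start, and none of the 4 forms was found in Hcst. In all, 6 of 7 members and 7 of 9 windows held TGTGGT, while 16.8% of all 32851 promoter windows of this length held it and 45.2% held any of the 4 forms. Both windows of Klrc2 overlap and hold the same matches. A match is a stretch of letters and not a measured binding site.

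On the arrays, all 10 members had a lower mean in Runx3-/- cells than in WT cells. Over all tested genes the median log2 difference was -0.01. For 7 members every Runx3-/- array lay below every WT array, where 7.52% of all 19938 named genes showed that order. In Klre1, Hcst and Fcer1g the groups overlapped. No member passed an adjusted p of 0.05 (limma, Benjamini-Hochberg over the 10021 genes tested), a threshold that 0.629% of tested genes passed. An unadjusted p under 0.05 was reached by 5 members, and by 1413 of the 10021 genes tested. At the threshold given in the study's methods, an unadjusted p of 0.05 with a change of 1.5-fold, 4 members were down-regulated and 0 were up-regulated. Those 4 were Klrk1, Klrc1, Klrb1c and Klrd1, and 4.33% of all tested genes were lower at that threshold (7.42% without KO1 and 3.0% without KO2). Values are log2 expression from robust multichip average (RMA) normalisation, on which a difference of 1 is a doubling. Of the members, 3 (Klrg1, Tyrobp and Fcer1g) stayed under the median of the whole table, 4.26, on every array and were not tested. Another 3, Klrc2, Klrb1c and Klre1, reached that median on WT arrays only, so that their entry into the test rested on the WT level. In such bulk samples fewer expressing cells and less RNA per cell cannot be told apart.

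**Figure D1:**
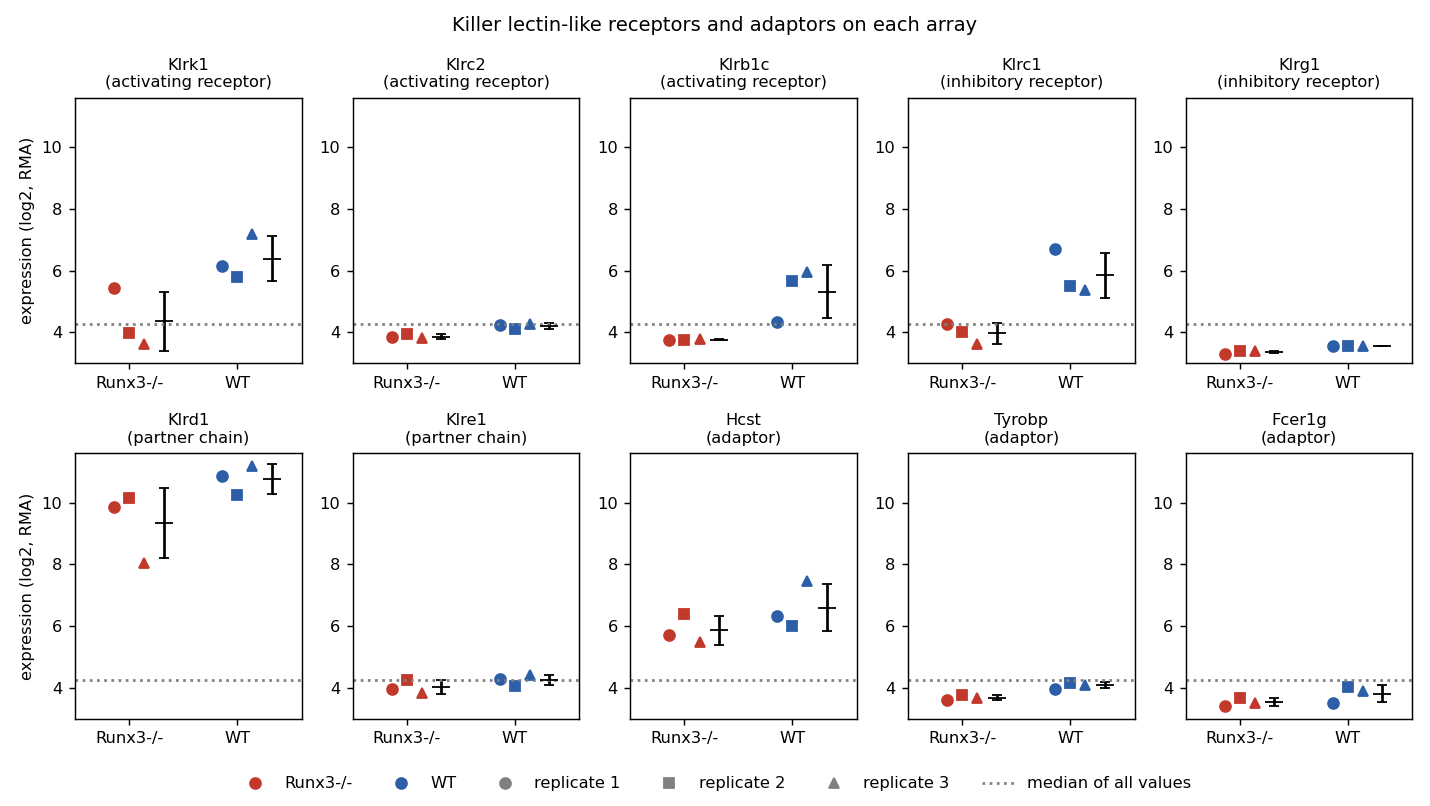
Log2 expression (RMA) of the 10 members on each array, with Runx3-/- (red) left of WT (blue), symbols for replicates, black bars for mean ± SD (n = 3) and a dotted line at 4.26, the median of all values. Klrk1, Klrb1c and Klrc1 lay at or under the dotted line in most Runx3-/- arrays and above it in WT arrays, Klrd1 was far above it everywhere, and Klrg1, Tyrobp and Fcer1g were under it on all 6 arrays.

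Facts on the arrays as a whole bear on these values. The array medians lay between 4.15 and 4.35. Runx3 itself averaged 9.10 ± 0.18 (SD, n = 3) in Runx3-/- and 8.73 ± 0.45 (n = 3) in WT arrays. The sources used here do not say which exons the allele lacks, and the value is read along the whole transcript, so it does not check the genotype labels. WT1, labelled male, had Xist at 10.64, against 3.31 to 3.40 on the other arrays. Eif2s3y, a gene of the Y chromosome, was at 3.93 in WT1, against 9.24 to 9.39 on the other arrays. Both values go against the sex label of WT1, and by these genes it differed in sex from WT2 and WT3. The part of sex in the members' differences was not tested. On the first principal component KO2 scored 42.4 and WT2 scored -40.3, with the other 4 arrays in between. All 10 T cell markers were far above the table median on every array, Cd3e for example at 10.18 to 10.50 in Runx3-/- and 9.87 to 10.38 in WT arrays, and Cd8a at 10.71 to 11.50 in Runx3-/- and 11.29 to 11.49 in WT arrays. The list mean was 10.44 to 10.73 in Runx3-/- and 9.95 to 10.48 in WT arrays. Cd5, a negative regulator of T cell receptor signalling, was higher at the study's threshold (1.12, adjusted p = 0.216), and Cd2 (0.56, adjusted p = 0.197) and Cd28 (0.54, adjusted p = 0.324) were also above all WT arrays on each Runx3-/- array. The part of these markers in the members' differences was not tested.

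Among the activating receptors, Klrk1 changed most. It stood at 5.44, 3.98 and 3.63 in KO1, KO2 and KO3, against 6.16, 5.79 and 7.20 in WT1, WT2 and WT3. The groups did not overlap, with KO1 closest to the WT arrays and KO2 and KO3 under the table median. The log2 difference was -2.03 (SE 0.54, 95% interval -3.31 to -0.75), with an unadjusted p of 0.00709 and an adjusted p of 0.194 (limma). Without KO1 the difference was -2.58 (adjusted p = 0.0755), and without WT3, the highest array, it was -1.62 (adjusted p = 0.368).

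Klrb1c encodes NK1.1, an activating receptor that signals through Fcer1g. It read 3.74, 3.76 and 3.77 in KO1, KO2 and KO3, against 4.34, 5.66 and 5.94 in WT1, WT2 and WT3. The Runx3-/- arrays were thus nearly equal and under the table median, and the spread lay in the WT arrays, with WT1 the lowest of them. The difference was -1.56 (SE 0.39, 95% interval -2.49 to -0.63, adjusted p = 0.169). Without WT1, the lowest WT array, it was -2.05 and passed over all genes (adjusted p = 0.0275). Klrb1c reached the table median on WT arrays only. Its entry into the test thus rested on the WT level, and the p-values just given carry that choice. With no filter on dim rows the adjusted p of Klrb1c was 0.283 (limma).

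Klrc2, the activating partner of CD94, was close to the table median throughout. It read 3.85, 3.94 and 3.80 in KO1, KO2 and KO3, against 4.22, 4.09 and 4.28 in WT1, WT2 and WT3, without overlap. Its difference of -0.34 (SE 0.13, adjusted p = 0.317) was short of 1.5-fold. Klrc1 and Klrc2 are closely related genes, and whether their probes cross-react was not tested.

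Of the inhibitory receptors, Klrc1 was lower in Runx3-/- cells and had the smallest p of the 7 members tested. It read 4.27, 4.02 and 3.61 in KO1, KO2 and KO3, against 6.70, 5.50 and 5.36 in WT1, WT2 and WT3. Only KO1 reached the table median among the Runx3-/- arrays, while all 3 WT arrays were above it. The difference was -1.88 (SE 0.37, 95% interval -2.76 to -1.0, unadjusted p = 0.00146, adjusted p = 0.0984, limma). For Klrk1, Klrb1c and Klrc1 the size of the difference is given on the array scale only, since at least 2 of the 3 Runx3-/- arrays were under the table median and a fold change there would have no measured lower end. It lay between -2.13 and -1.46 when each array was left out, the smallest change being without WT1. Klrg1, an inhibitory receptor for cadherins that marks terminally differentiated effector cells, was dim on all arrays. It read 3.31, 3.38 and 3.38 in KO1, KO2 and KO3, against 3.56, 3.55 and 3.54 in WT1, WT2 and WT3. The groups did not overlap, yet all 6 values were below the table median.

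The activating Klrk1 and the inhibitory Klrc1 were thus both lower in Runx3-/- cells at the study's threshold. Whether they changed to the same extent cannot be read here, since most of their Runx3-/- values were near or under the table median. By role, 2 of 3 activating receptors, 1 of 2 inhibitory receptors, 1 of 2 partner chains and 0 of 3 adaptors were lower at the study's threshold. Of all tested genes 4.33% were lower at it. These counts include Klrg1, Tyrobp and Fcer1g, which were not tested and could not pass. Klrc1 was thus the only inhibitory receptor tested and Hcst the only adaptor tested. Klrb1c entered the test on its WT level alone. Whether these shares differ between roles was not tested.

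**Figure D2:**
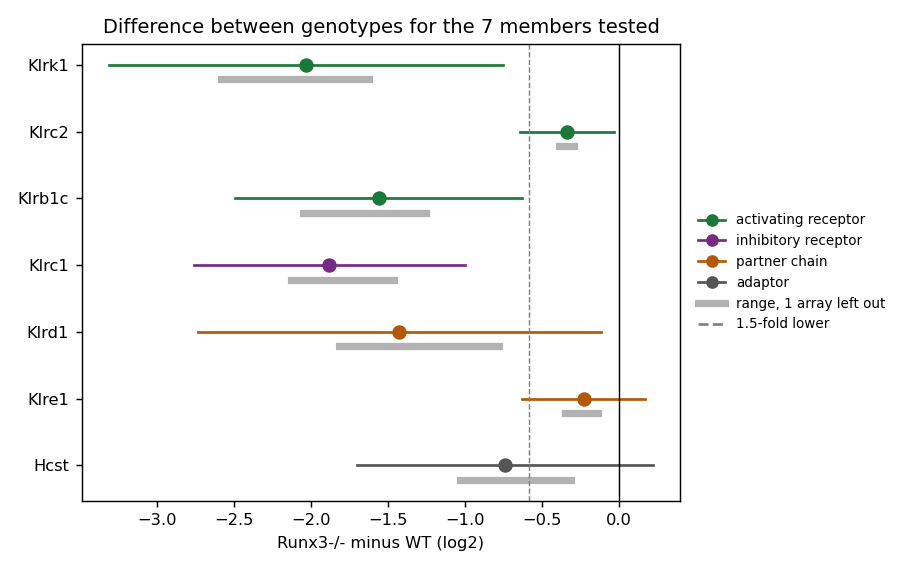
Log2 difference, Runx3-/- minus WT, of the 7 tested members (points, coloured by role) with 95% intervals (lines), and the range when 1 array is left out (grey bars); the dashed line marks a 1.5-fold lower value. Klrk1 at -2.03, Klrc1 at -1.88 and Klrb1c at -1.56 lay beyond the dashed line with their whole intervals, while the intervals of Klre1 and Hcst included 0.

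The partner chains differed between themselves. Klrd1, which encodes CD94, read 9.85, 10.14 and 8.04 in KO1, KO2 and KO3, against 10.88, 10.24 and 11.19 in WT1, WT2 and WT3. It was well above the table median on every array. KO3 was the lowest by far, and KO2 lay just under WT2. The difference was -1.43 (SE 0.55, 95% interval -2.73 to -0.12, adjusted p = 0.319). It depended on KO3, without which it was -0.78, and it missed the study's threshold without WT1 (-1.37) and without WT3 (-1.22). Klre1 forms heterodimers with Klri1 or Klri2 in mice. It read 3.96, 4.26 and 3.84 in KO1, KO2 and KO3, against 4.27, 4.07 and 4.41 in WT1, WT2 and WT3, and the groups overlapped. Its difference was -0.23 (SE 0.17, adjusted p = 0.558), and its own partner genes were at 3.78 to 3.98 (Klri1) and 3.89 to 4.10 (Klri2) in Runx3-/- and at 3.82 to 4.05 (Klri1) and 4.05 to 4.30 (Klri2) in WT arrays.

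Among the adaptors, Hcst was the only one above the table median. Hcst read 5.71, 6.38 and 5.49 in KO1, KO2 and KO3, against 6.34, 6.00 and 7.45 in WT1, WT2 and WT3. The groups overlapped, with KO2 above both WT1 and WT2. Its difference was -0.74 (SE 0.41, 95% interval -1.70 to 0.22, adjusted p = 0.449). It was -0.31 without WT3 and -1.03 without WT2, when it passed the study's threshold. Tyrobp read 3.59, 3.77 and 3.68 in KO1, KO2 and KO3, against 3.96, 4.17 and 4.10 in WT1, WT2 and WT3, all under the table median and without overlap. Fcer1g read 3.42, 3.68 and 3.51 in KO1, KO2 and KO3, against 3.50, 4.01 and 3.90 in WT1, WT2 and WT3, with overlap. Thus Hcst (DAP10), an adaptor of NKG2D, was above the table median in both genotypes, whereas the adaptors Tyrobp and Fcer1g were dim in both.

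Tyrobp and Fcer1g are also genes of myeloid cells, and the receptors are genes of NK cells. Of 14 dendritic cell and macrophage markers with a row, 13 were under the table median on every array, and the mean over the list was 3.83 to 3.94 in Runx3-/- and 3.83 to 3.98 in WT arrays. Itgax, which encodes the CD11c used in the sort, was at 3.31 to 3.42 in Runx3-/- and at 3.48 to 3.72 in WT arrays. The exception was Ctss, which encodes a lysosomal protease, at 9.83 to 9.91 in Runx3-/- and 8.24 to 9.69 in WT arrays. The list mean includes Ctss, which was higher without overlap. Like Itgax, Itgam (3.17 to 3.29 in Runx3-/- and 3.58 to 4.24 in WT arrays) was lower without overlap. So was Mpeg1 (3.52 to 3.57 in Runx3-/- and 3.58 to 3.66 in WT arrays), and the other rows overlapped. Their part in the values of Tyrobp and Fcer1g was not tested. Of 5 NK cell markers with a row, 3 were dim on every array, and the list averaged 3.84 to 4.01 in Runx3-/- and 3.99 to 4.01 in WT arrays. Itga2, an integrin chain that activated T cells can also carry, was above the median at 4.87 to 5.85 in Runx3-/- and 4.94 to 5.27 in WT arrays. Ncr1, the defining receptor NKp46, lay between 3.30 and 3.41 in Runx3-/- and between 3.49 and 3.51 in WT arrays. Mast cell and basophil markers (6 of 7 dim on every array, the exception being Ms4a2 with a difference of -0.06, mean 3.53 to 3.70 in Runx3-/- and 3.59 to 3.64 in WT arrays) and markers of unconventional T cells (4 of 4 dim) were low too. Of 7 B cell markers, 6 were dim, and Cd79b, a B cell receptor chain, was at 4.64 to 5.21 in Runx3-/- and 5.53 to 6.12 in WT arrays (-0.93, adjusted p = 0.148). Cd79a went the other way without overlap, at 3.47 to 3.52 in Runx3-/- and 3.16 to 3.28 in WT arrays. The remaining dim B cell markers overlapped between the groups.

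Most members lie in the natural killer gene complex on chromosome 6. In the gene order of assembly GRCm38, 26 protein-coding genes run from Klrb1c to Klrc1, 24 of them with a row of their own and 11 tested. At the study's threshold 5 of these were lower and 1 was higher, where 4.33% of all tested genes were lower and 3.97% higher. The 5 were Klrb1c, Klrd1, Klrk1, Klrc1 and Gabarapl1, an autophagy gene that is not a lectin and sits beside Klre1. Gabarapl1 read 7.20, 5.79 and 7.03 in KO1, KO2 and KO3, against 8.05, 8.36 and 8.02 in WT1, WT2 and WT3, a difference of -1.47 (SE 0.37, adjusted p = 0.162). The higher gene was Clec2i, a C-type lectin-like ligand of this receptor family, at 9.38, 9.55 and 9.53 in KO1, KO2 and KO3, against 9.20, 8.20 and 8.92 in WT1, WT2 and WT3 (0.71, adjusted p = 0.295), and it passed the study's threshold in 3 of 6 fits with an array left out (not without KO2, 0.68, without KO3, 0.69, or without WT2, 0.43). Clec2d, Cd69 and Klrb1b in the same stretch overlapped between the groups. Of the 11 tested genes 6 are members described above, and with them the median difference was -0.34, beside -0.01 for all tested genes. The 5 that are not members had a median of 0.19, with Gabarapl1 lower and Clec2i higher. Both ends of the stretch, Klrb1c and Klrc1, are members. Klrb1c, Klrb1b, Klrc2 and Klre1 reached the table median on WT arrays only, so that their entry into the test rested on the WT level.

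**Figure D3:**
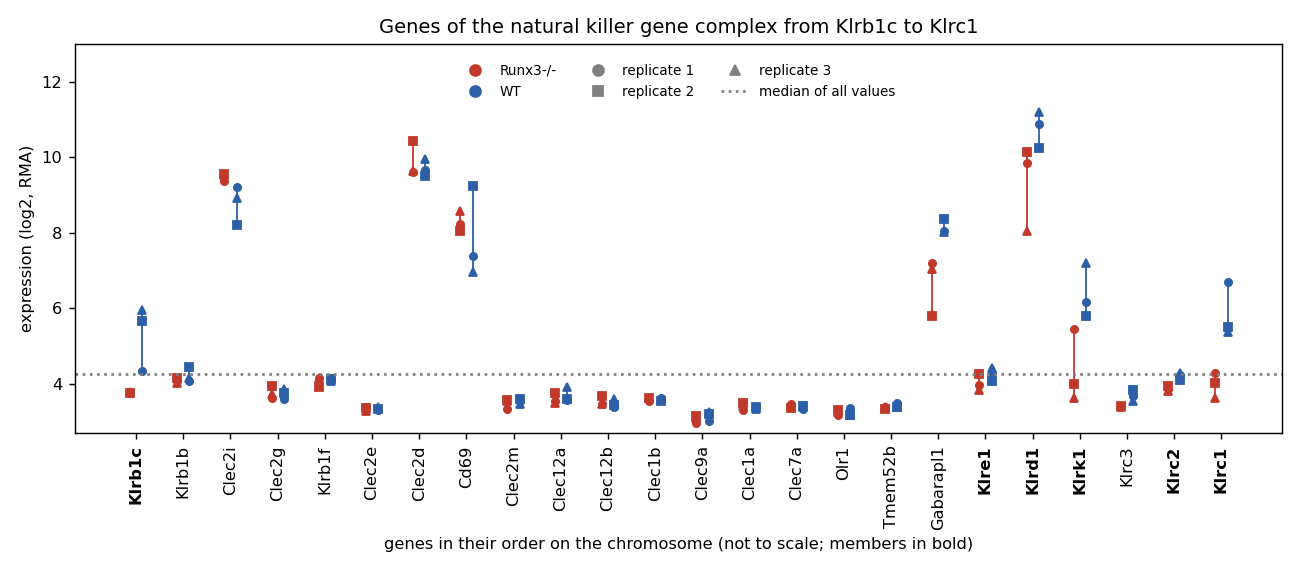
Log2 expression on each array (Runx3-/- red, left of WT in blue; symbols for replicates, lines from lowest to highest array) of the 24 genes with a row from Klrb1c to Klrc1, in chromosomal order but not to scale, with the dotted line at the table median of 4.26. Genes at the right end, from Gabarapl1 through Klrd1 and Klrk1 to Klrc1, include 4 of the 5 that were lower at the study's threshold, whereas the genes from Clec2m to Tmem52b were under the dotted line in both genotypes.

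Other killer lectin-like receptors were mostly dim. Of 33 genes of the list, 16 had a row of their own, and 12 of these were under the table median on every array, between 3.25 and 4.20. None of the 4 tested (Klra5, Klrb1a, Klrb1b, Klri2) passed either threshold. Klra5, a Ly49 receptor gene, was high on 1 array only. It read 3.57, 3.88 and 3.45 in KO1, KO2 and KO3, against 3.75, 7.22 and 3.88 in WT1, WT2 and WT3, so that its difference of -1.32 (SE 0.87, adjusted p = 0.521) came from WT2. The 4 rows shared by several Ly49 genes were flat, with all values between 3.42 and 3.80. Klrc3, next to Klrc2 and Klrk1, was dim at 3.39 to 3.42 in Runx3-/- and 3.53 to 3.82 in WT arrays.

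Other activating receptors of NK type went both ways. Of 6 tested, 3 were lower and 2 higher at the study's threshold, and 3.97% of all tested genes were higher at it. Lower were Slamf7 (-1.85, adjusted p = 0.128), Cd160 (-1.61, adjusted p = 0.0838) and Cd244a, which encodes the receptor 2B4 (-0.99, adjusted p = 0.336). Higher were Cd226, which encodes the adhesion receptor DNAM-1 (1.08, adjusted p = 0.0984), and Slamf6 (1.07, adjusted p = 0.312). Slamf7 read 6.32, 5.69 and 5.66 in KO1, KO2 and KO3, against 7.24, 8.69 and 7.29 in WT1, WT2 and WT3. Cd226 read 9.64, 10.11 and 9.41 in KO1, KO2 and KO3, against 8.46, 8.85 and 8.59 in WT1, WT2 and WT3, with each Runx3-/- array above all WT arrays. Slamf7, Cd160 and Cd226 passed the study's threshold whichever array was left out, and Slamf6 did so except without KO2 (0.85), with 0.61 without WT2. Cd244a read 3.55, 3.61 and 3.53 in KO1, KO2 and KO3, against 3.89, 5.55 and 4.22 in WT1, WT2 and WT3. It reached the table median on WT2 only, so that its entry into the test, and into the count above, rested on that array. It missed the threshold without WT2 (-0.49) and without KO1 (-0.99), KO2 (-1.02) or KO3 (-0.98).

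The relay downstream of the receptors was measured too. Of 21 tested genes of the activating relay, 1 passed over all genes. This was Pik3cg, a catalytic subunit of phosphoinositide 3-kinase, which fell to 6.64, 7.28 and 6.74 in KO1, KO2 and KO3, against 8.25, 8.30 and 8.14 in WT1, WT2 and WT3 (-1.34, SE 0.19, adjusted p = 0.0441). It stayed past that threshold without KO2 (adjusted p = 0.0329) but not without KO1 (0.0832), KO3 (0.171), WT1 (0.141), WT2 (0.114) or WT3 (0.153), with differences between -1.54 and -1.22. At the study's threshold 3 were lower, Pik3cg, Plcg2 (-0.92, adjusted p = 0.0681) and Lat2 (-0.70, adjusted p = 0.132), and 2 were higher, Pik3r2 (0.73, adjusted p = 0.221) and Vav2 (0.69, adjusted p = 0.181). Of these 5, Pik3r2 missed the study's threshold without KO3 (0.54), and the other 4 passed it whichever array was left out. Plcg2 encodes a phospholipase and Lat2 a scaffold used by Syk-family kinases. The median of the list was 0.09. The other catalytic subunits of phosphoinositide 3-kinase in the list passed neither threshold. These were Pik3ca (0.21, adjusted p = 0.65), Pik3cb (0.24, adjusted p = 0.467) and Pik3cd (0.09, adjusted p = 0.799). Whether Hcst signals through the subunit that Pik3cg encodes was not tested. Zap70, the kinase that T cells use, read 8.57 to 8.72 in Runx3-/- and 8.52 to 8.69 in WT arrays, whereas Syk was dim throughout.

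In the inhibitory relay 3 of 10 tested genes were higher at the study's threshold and 0 lower, with a median of 0.32. They were Pag1, an adaptor that brings the kinase Csk to the membrane (1.17, adjusted p = 0.156), the diacylglycerol kinase Dgka (0.91, adjusted p = 0.256) and the ubiquitin ligase Cbl (0.65, adjusted p = 0.297). Pag1 passed whichever array was left out, Dgka did so except without KO2 (0.77), and Cbl missed the threshold without KO2 (0.51), KO3 (0.61) or WT2 (0.47). Ptpn6, the phosphatase of inhibitory lectin-like receptors, read 9.77, 9.21 and 9.77 in KO1, KO2 and KO3, against 9.57, 9.46 and 9.28 in WT1, WT2 and WT3, with overlap. Among ligands, 4 of 10 genes with a row were tested, Clec2i alone passed the study's threshold, and the median was 0.45. H60b, a ligand of NKG2D, read 6.55, 7.44 and 5.86 in KO1, KO2 and KO3, against 5.62, 5.24 and 6.47 in WT1, WT2 and WT3, and the groups overlapped.

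**Figure D4:**
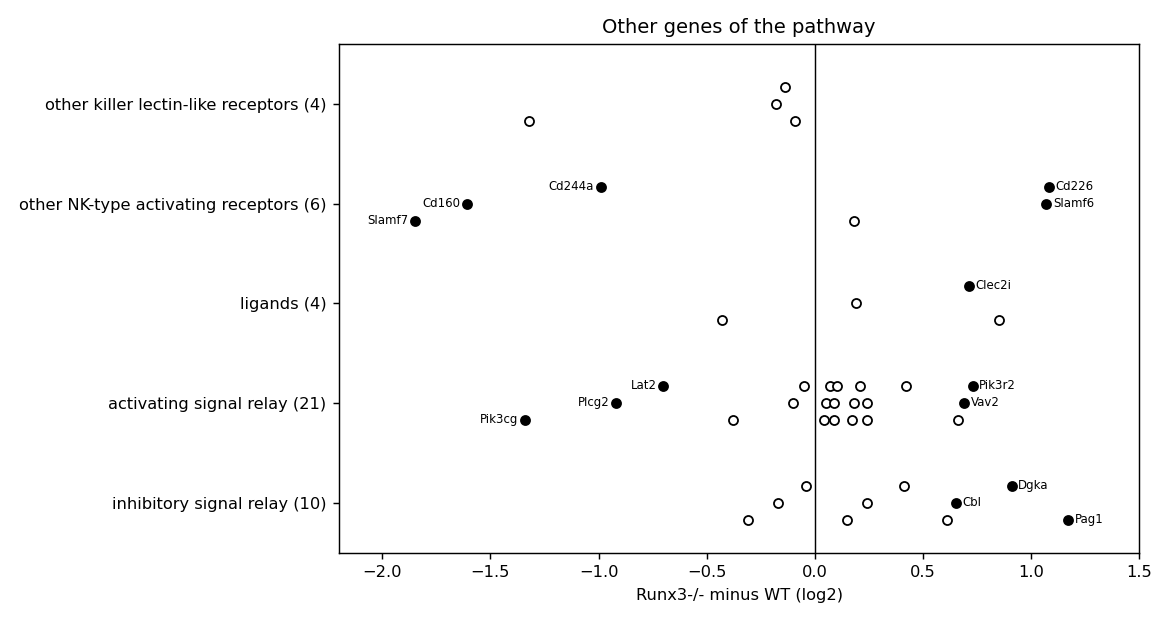
Log2 difference, Runx3-/- minus WT, of each tested gene in the 5 lists of other pathway genes (number tested in parentheses; vertical offsets only separate points). Filled and named points passed the study's threshold, from Slamf7 at -1.85 to Pag1 at 1.17, and the 3 named genes of the inhibitory relay were all higher in Runx3-/- cells.

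The genes whose profile over the 6 arrays was most like that of Klrk1 were Ly6a2, Galnt3, Plxdc2, Ttc39c and Smim3, with root mean square differences of 0.30, 0.35, 0.38, 0.40 and 0.42 between mean-centred log2 values. All 5 had a lower mean in Runx3-/- arrays, with KO1 the highest of these as for Klrk1. The groups did not overlap except for Plxdc2, in which KO1 (7.11) was above WT1 (7.04). Ttc39c read 5.69, 4.69 and 4.59 in KO1, KO2 and KO3, against 6.73, 7.30 and 7.71 in WT1, WT2 and WT3 (-2.26, adjusted p = 0.0587). Among the tested members, Klrd1 was nearest to Klrk1 (0.69), and the smallest difference of all pairs was that of Klrc2 and Klre1 (0.11), both near the table median. These are descriptions over 6 arrays of 2 genotypes, in which any genes that differ by genotype resemble each other.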

How the data were processed

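RNA of each mouse's cultured CD8-TC was hybridised to an Affymetrix mouse gene ST 1.0 array. The authors used Partek Genomics Suite for RMA normalisation with GC correction (versions not given in the sources used here) and deposited log2 values in 1 column per array. They carry no detection calls, and the number of arrays limits the precision. Rows were named from a platform table, and 21789 of 35399 had exactly 1 symbol; where a gene had several, the row of highest mean stood for it. A gene was tested if its highest value reached the median of all values (4.26). Runx3-/- and WT arrays, grouped by title, were compared with limma (version 3.58.1, R 4.3.3) without covariates, two-sided, with Benjamini-Hochberg adjustment over 10021 genes, and differences are Runx3-/- minus WT. The fit was tested on simulated data. Replicates are individual mice. Alternatives were the filter on dim rows, the scaling of columns, the mean of rows, the replicate number as a block, other priors, array weights and each array left out; a fit without WT2 and KO2 was added after the data were seen. The members and lists were chosen with earlier results of these data known, and named genes were all members, list genes past either threshold (else that of smallest p) and the 5 genes most like Klrk1. Figures were drawn with matplotlib 3.10.9.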

Additional observations from a re-analysis of the deposited data

How the results depend on the processing

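All 7 tested members kept a lower value in Runx3-/- arrays under every alternative that gave a value. Klrk1, Klrc1 and Klrb1c passed the study's threshold in all 15, with adjusted p between 0.0312 and 0.499, 0.0145 and 0.325, and 0.0275 and 0.436, and Klrd1 passed it in 12 (adjusted p between 0.0353 and 0.560). The stricter filter on dim rows left out Klrc2 and Klre1.

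Array weights brought Klrk1 (-2.37), Klrc1 (-2.48) and Klrd1 (-2.31) past the adjusted threshold, so that 3 members passed. The number of members past it was 0 to 1 with an array left out, and that past the study's threshold was 3 to 5. Over all genes, 63 passed the adjusted threshold, 547 with array weights, 36 with no filter on dim rows and 9 to 67 with an array left out (fewest without KO3; 27 without KO2, and 17, 26 and 11 when the WT array left out was WT1, WT2 or WT3). At the study's threshold 832 genes passed, and 651 to 1258 with an array left out, the highest count being without KO1. Of these, 398 were higher and 434 lower; without KO1 514 were higher and 744 lower, and without KO2 463 were higher and 301 lower. The 14 other pathway genes past the study's threshold became 9 to 17 with an array left out, and 9 without WT2 and KO2. The change of Klrk1 minus that of Klrc1, a contrast chosen after the values were seen, was -0.15 and ran from -0.68 to 0.51 with an array left out, and was above 0 without KO2 (0.06), KO3 (0.03) or WT3 (0.51). Pik3cg missed the adjusted threshold with no filter on dim rows (0.0793), with quantile normalisation (0.0653) and with the replicate block (0.183). None of the genes run through the alternatives (tested members, pathway genes past the study's threshold, Gabarapl1, Klra5, Cd79b, Cd5, H60b, Ptpn6 and the 5 genes most like Klrk1) changed direction. The causes were not tested.

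Deviations of same-numbered arrays from their group means correlated at -0.13, -0.37 and -0.13 over tested genes. Between arrays of unlike number the correlations ran from -0.45 (KO1 with WT3) to 0.44 (KO2 with WT3). With 3 arrays per group such deviations depend on each other, so these values cannot decide whether the arrays were paired. With the replicate number as a block 1 gene passed over all genes, no member did, and 3 members passed the study's threshold. Dim members, and Klrk1, Klrb1c and Klrc1 in Runx3-/- arrays, are limited by signal over background, since their values lie where the arrays carry little information on fold.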
